A study of Mus musculus with 30 samples.

Results

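The deposited expression table of sorted mouse bone marrow progenitors held 74 immunoglobulin genes among its 11383 genes. They were found by symbol alone: Jchain, the heavy-chain constant genes, and every symbol of a variable (V), diversity (D), joining (J) or constant segment of the heavy, kappa or lambda locus. They comprised Jchain, 2 heavy-chain constant genes (Ighm and Igha), 1 heavy D gene (Ighd4-1), 4 heavy J genes (Ighj1 to Ighj4), 30 heavy V segments, Igkc, 3 kappa J genes, 28 kappa V segments, 2 lambda constant genes and 2 lambda V segments. The GENCODE M21 annotation of build GRCm38 lists 394 genes that match the same symbols, and the other 320 were not analysed here. The lowest mean over the 30 libraries of any gene in the table was 1.00 FPKM (fragments per kilobase of gene, scaled to the reads assigned in each library). A segment that was near 0 in most groups was therefore in the table only because it was high in a few libraries and had to differ there, so counts of called genes describe the table and support no direction. Of the 74 genes, 40 had their highest group mean in naive GMP, 27 in proNeu1 after LPS and 5 in naive MDP.

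The cells were wild-type (WT) progenitors sorted into 6 populations from naive mice: MDP (monocyte and dendritic cell progenitor), cMoP (common monocyte progenitor), GMP (granulocyte and monocyte progenitor), proNeu1 and proNeu2 (neutrophil progenitors) and GMP-MoP, the population the study is about. GMP, proNeu1, proNeu2 and GMP-MoP were sorted again 2 days after LPS (lipopolysaccharide, a bacterial cell wall component). Each of the 10 groups had 3 libraries, which the labels call biological replicates without saying whether animals were pooled. The labels used here give no age, strain, sort gate or LPS route.

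Antibodies are made of paired heavy and light chains. Early in B cell development a heavy D segment is joined to a J segment, then a V segment to that DJ, and a kappa or lambda light chain follows; the heavy-chain locus can be transcribed through its J and mu constant region before a V is joined. Plasma cells, the antibody-secreting end of the B lineage that resides in bone marrow, transcribe the rearranged chains at very high levels and also Jchain, which links IgM and IgA into multimers.

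Both sets of sequences that follow carry the main findings, since the J genes and the V segments moved apart between naive GMP and naive MDP or cMoP. After LPS they moved the same way, with 4 of 4 heavy J genes called lower in GMP and 2 of 4 called higher in proNeu1. The D and J genes lie on the minus strand in a short cluster between the V segments and Ighm, and capitals mark the start of the codons for the tryptophan and glycine that J genes share. The positions are chr12:113430528-113430538 for Ighd4-1, chr12:113429781-113429833 for Ighj1, chr12:113429468-113429567 for Ighj2, chr12:113429085-113429132 for Ighj3 and chr12:113428514-113428567 for Ighj4, all on GRCm38 from GENCODE M21 transcripts. The gene record of Ighj2 is longer than the transcript printed.
Ighd4-1: ctaactgggac
Ighj1: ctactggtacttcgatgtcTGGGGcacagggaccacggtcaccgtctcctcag
Ighj2: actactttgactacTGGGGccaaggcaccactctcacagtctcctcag
Ighj3: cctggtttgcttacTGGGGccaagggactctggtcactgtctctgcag
Ighj4: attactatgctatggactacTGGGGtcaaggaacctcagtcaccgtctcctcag

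The V segments below led the heavy and kappa reads of the GMP libraries (Ighv11-2 and Igkv14-126) and of the proNeu1 libraries (Ighv7-1 and Igkv15-103). Each line gives the last 60 bases of the transcript, where the segment meets the joined D or J, and capitals mark the conserved cysteine codon. Ighv11-2 lies at chr12:114048241-114048812 and Ighv7-1 at chr12:113896408-113896946, both on the minus strand, and Igkv14-126 at chr6:67896172-67896642 and Igkv15-103 at chr6:68437440-68437925, both on the plus strand. Ighv11-2 with Igkv14-126 is a pair known from mouse B-1 cells, whose antibodies bind phosphatidylcholine.
Ighv11-2: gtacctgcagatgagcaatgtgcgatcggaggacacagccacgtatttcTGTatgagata
Igkv14-126: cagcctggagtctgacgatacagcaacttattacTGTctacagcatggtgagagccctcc
Ighv7-1: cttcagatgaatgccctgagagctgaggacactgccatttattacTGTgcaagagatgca
Igkv15-103: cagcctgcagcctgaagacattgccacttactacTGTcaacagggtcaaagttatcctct

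The libraries held 23.6 to 41.3 M reads assigned to genes (median 28.6 M). Summed over the 74 genes, the level ranged from 49.5 to 3107 FPKM a library, and 52.8% of all values of these genes were 0. Known genes of some of the labelled populations were read beside these levels. Flt3, a receptor of early progenitors, averaged 199 FPKM in naive MDP, Csf1r, the macrophage growth factor receptor, 123 FPKM in naive cMoP, and Elane, neutrophil elastase, 7187 FPKM in naive proNeu1. A list of 5 GMP genes, Elane among them, summed to 3635 to 5187 FPKM in naive GMP. It was higher in naive proNeu1 (12742 to 13523 FPKM) and naive GMP-MoP (10872 to 12119 FPKM), so it did not set naive GMP apart. These are bulk samples, in which fewer cells of a type and less RNA per cell cannot be told apart.

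Heavy-chain D and J genes were highest in naive MDP, beside a high level of Ighm, the constant region of IgM, and with few V segment or light chain reads. Ighm stood at 399, 397 and 414 FPKM in naive MDP, 246, 262 and 253 FPKM in naive cMoP, 116, 114 and 168 FPKM in naive GMP-MoP and 59.1, 60.04 and 57.8 FPKM in naive proNeu2. These groups did not overlap with one another. Igkc, the kappa constant region, stood in the same order at 1.44, 2.16 and 1.27 FPKM, at 0.245, 0.429 and 0.383 FPKM, at 1.36, 0.979 and 3.94 FPKM and at 1.68, 2.17 and 0.421 FPKM. Jchain was at most 0.445 FPKM in any of these 12 libraries, beside an Ighm level of at least 57.8 FPKM.

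**Figure D1:**
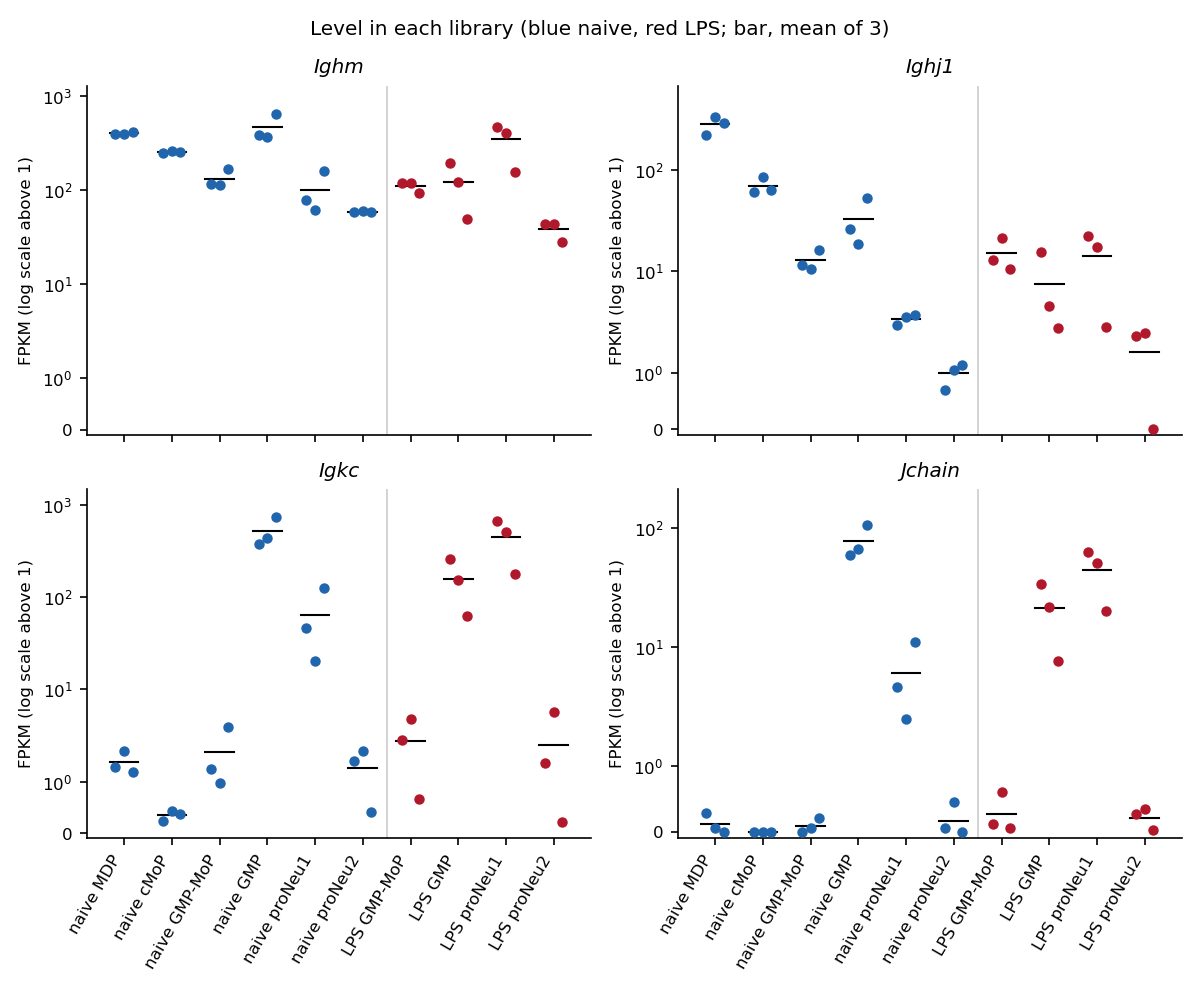
Ighm, Ighj1, Igkc and Jchain in each of the 30 libraries, in FPKM on a log scale above 1 and a linear scale below it, with a bar at the mean of 3 libraries. Ighm was above 28 FPKM in every library and Ighj1 was highest in naive MDP, while Igkc and Jchain were high in naive GMP, LPS GMP, LPS proNeu1 and, lower, naive proNeu1.

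Ighj1 reached 217, 332 and 285 FPKM in naive MDP and 60.1, 84.8 and 63.0 FPKM in naive cMoP, a difference larger than the spread between libraries (log2 fold change 1.98, SE 0.55, adjusted p = 0.00434, limma on log2 of FPKM + 1). Ighj2, Ighj3 and Ighj4 did the same, with log2 fold changes of 1.79, 1.51 and 1.67. Ighd4-1, the D segment nearest to the J genes, stood at 135, 138 and 162 FPKM in naive MDP and 38.4, 24.2 and 16.2 FPKM in naive cMoP (log2 fold change 2.5, SE 0.87, adjusted p = 0.0207). The MDP libraries were above all cMoP libraries for each of these 5 genes. Ighd4-1 is 11 bases long, so these values rest on 37 to 45 reads a library in MDP and 7 to 13 in cMoP. The call of these 5 genes depended on the pseudocount: with 0.1 in place of 1 FPKM none passed by limma (adjusted p = 0.0551 for Ighj1 and 0.153 to 0.241 for the others, at log2 fold changes of 1.53 to 2.55), while voom on the recovered reads called all 5. Without the third MDP library or the third cMoP library Ighj4 and Ighd4-1 did not pass (adjusted p = 0.0536 to 0.0834), nor did Ighj4 without the first cMoP library (adjusted p = 0.0502).

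In all, 6 of the 74 genes were called higher in naive MDP than in naive cMoP and none lower, where a call needed an adjusted p below 0.05 and a change of at least 2-fold; at an unadjusted p below 0.05, 1 was lower. Among all 11383 genes 4.16% were called higher and 3.38% lower. The sixth was Ighv1-74, with 0.694, 1.81 and 0.685 FPKM in naive MDP against 0 in every naive cMoP library. Ighm did not pass the test in this comparison although its groups did not overlap (log2 fold change 0.67, SE 0.39, adjusted p = 0.168). The median log2 fold change was 0.00 over the 74 genes and 0.07 over all genes.

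The D and J genes were lower still in the other populations. Ighj1 was 11.6, 10.6 and 16.1 FPKM in naive GMP-MoP, 2.96, 3.54 and 3.75 FPKM in naive proNeu1 and 0.705, 1.06 and 1.21 FPKM in naive proNeu2, and these 3 groups did not overlap. Summed over Ighd4-1 and the 4 J genes, the level was 674, 822 and 786 FPKM in naive MDP, 204, 241 and 163 FPKM in naive cMoP and 22.5, 35.0 and 40.2 FPKM in naive GMP-MoP. Heavy and kappa V segments stayed low: the heavy ones came to at most 5.88 FPKM and the kappa ones to at most 1.88 FPKM in any naive MDP, cMoP or GMP-MoP library. Of the 59 V segments other than the pseudogene Ighv1-41, 40 were at 0 in all 3 naive MDP libraries, 52 in naive cMoP and 41 in naive GMP-MoP. The summed D and J level divided by that of Ighm was 1.69, 2.07 and 1.90 in naive MDP, 0.830, 0.920 and 0.644 in naive cMoP, 0.194, 0.307 and 0.239 in naive GMP-MoP and 0.165, 0.135 and 0.131 in naive GMP, and these groups did not overlap, so the D and J genes and Ighm did not move in proportion. The D and J genes are far shorter than a sequenced fragment, which makes their FPKM a rough measure of level beside that of Ighm.

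**Figure D2:**
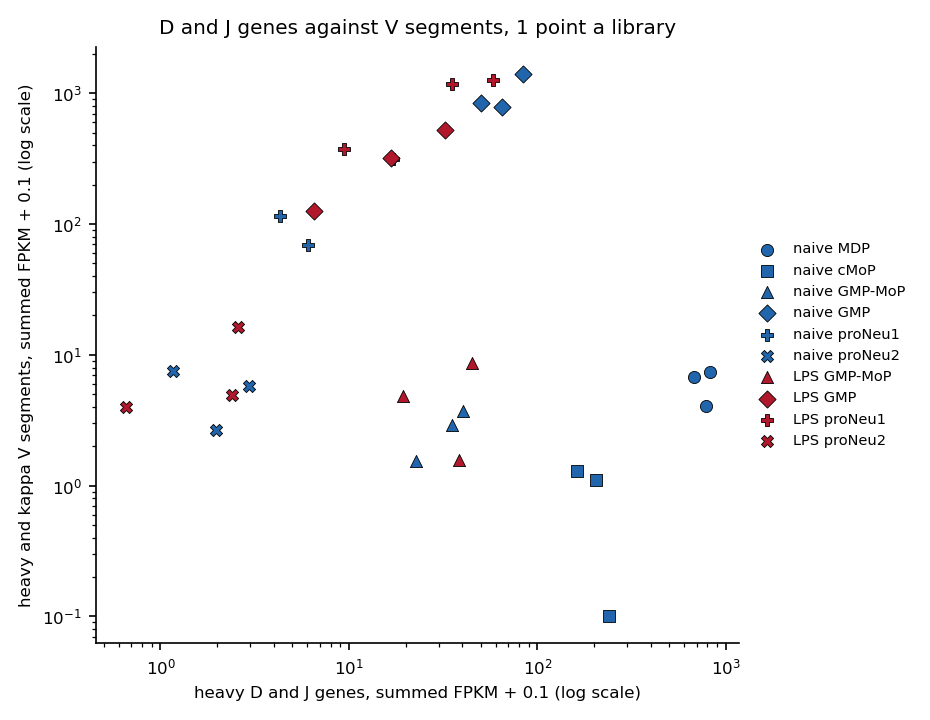
Summed FPKM of the heavy D and J genes (x axis, log scale, 0.1 added) against that of the heavy and kappa V segments (y axis, log scale, 0.1 added), 1 point a library, blue for naive and red for LPS. MDP and cMoP lie at the right and bottom, GMP and proNeu1 at the top, GMP-MoP and proNeu2 at the bottom.

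Naive GMP held the second pattern, in which V segments, both light chains and Jchain were high together. Jchain stood at 59.8, 66.2 and 106 FPKM in naive GMP and at 4.56, 2.49 and 11.1 FPKM in naive proNeu1. Igkc was 370.0, 439 and 731 FPKM in naive GMP and 46.0, 20.5 and 125 FPKM in naive proNeu1. In both genes the third library was the highest of each group, and no proNeu1 library reached a GMP library. The difference passed the test for Jchain (log2 fold change 3.62, SE 0.42, adjusted p = 5.16e-08) and for Igkc (log2 fold change 3.29, SE 0.64, adjusted p = 9.15e-05).

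Against naive GMP-MoP the fold change was larger, with Jchain at 0, 0.0575 and 0.204 FPKM there (log2 fold change 6.13, SE 0.42, adjusted p = 5.63e-12) and a log2 fold change of 7.43 for Igkc. Ighm, which GMP-MoP cells also carried, was 390.0, 371 and 643 FPKM in naive GMP, above every GMP-MoP library (log2 fold change 1.79, SE 0.39, adjusted p = 0.000473). Igha, the constant region of IgA, was 5.67, 11.02 and 12.4 FPKM in naive GMP and 0, 0 and 1.31 FPKM in naive GMP-MoP (log2 fold change 2.95, SE 0.35, adjusted p = 1.56e-07). Igha made up 1.43%, 2.89% and 1.89% of the summed Igha and Ighm level in naive GMP, so IgM was the higher of the 2 classes measured; Ighd, Ighe and the Ighg genes were not analysed here. The J genes differed less, and 1 of 4 was called higher, Ighj4. It was 19.5, 25.7 and 18.04 FPKM in naive GMP and 6.04, 7.42 and 4.603 FPKM in naive GMP-MoP. With a pseudocount of 0.1 Ighj4 did not pass by limma (adjusted p = 0.122). Ighj1 was 26.3, 18.5 and 52.8 FPKM against 11.6, 10.6 and 16.1 FPKM, without overlap, but was not called. Ighj3 was 5.496, 4.24 and 4.41 FPKM in naive GMP and 1.51, 8.35 and 8.88 FPKM in naive GMP-MoP. Its groups overlapped (log2 fold change -0.11, SE 0.47, adjusted p = 0.866).

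Counted over the 74 genes, 64 were called higher and none lower in naive GMP than in naive GMP-MoP, where 6.53% of all genes were called higher and 2.02% lower; 1 was lower at an unadjusted p below 0.05. Against naive MDP 60 were higher and 5 lower (5.42% and 2.73% of all genes), and the 5 lower ones were Ighd4-1 and Ighj1 to Ighj4, led by Ighd4-1 (log2 fold change -6.20, SE 0.87, adjusted p = 1.78e-06). Against naive cMoP 63 were higher and 3 lower (7.33% and 4.11% of all genes), the 3 being Ighd4-1, Ighj2 and Ighj3. Against naive proNeu1 61 were higher (8.35% of all genes) and only Ighv1-41, described below, was lower (4.09% of all genes). The median log2 fold change over the 74 genes was 2.72, 2.698, 2.78 and 2.52 against MDP, cMoP, GMP-MoP and proNeu1, beside -0.02, 0.06, 0.04 and 0.14 over all genes. These comparisons share the naive GMP libraries.

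Ighm did not pass the test between naive GMP and naive MDP (log2 fold change 0.17, SE 0.39, adjusted p = 0.76), while Igkc was far apart in the same libraries (log2 fold change 7.57, SE 0.64, adjusted p = 3.02e-10). The level of Ighm divided by that of Igkc was 278, 184 and 327 in naive MDP and 1.05, 0.844 and 0.880 in naive GMP. The first 2 naive GMP libraries lay under all naive MDP libraries in Ighm and all 3 lay far above them in Igkc.

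Genes of other cell types were also high in naive GMP but, unlike the immunoglobulin genes, did not rise in proNeu1 after LPS. The list of basophil, eosinophil and mast cell genes, all 15 of which were measured, summed to 18814 to 20802 FPKM in naive GMP, 7658 to 9251 FPKM in LPS GMP and 460.0 to 1028 FPKM in naive proNeu1. It came to 217 to 328 FPKM in LPS proNeu1, where the immunoglobulin genes summed to 2636, 2314 and 796 FPKM, against 1725, 1841 and 3107 FPKM in naive GMP. MHC class II genes, of which 6 of 7 were measured, summed to 569 to 1334 FPKM in naive GMP, 83.1 to 169.6 FPKM in LPS GMP and 20.7 to 26.6 FPKM in LPS proNeu1. Macrophage genes, of which 9 of 10 were measured, summed to 69.0 to 90.7 FPKM in naive GMP, 24.1 to 27.1 FPKM in LPS GMP, 36.7 to 38.9 FPKM in naive proNeu1, 23.8 to 28.4 FPKM in LPS proNeu1 and 14.8 to 16.7 FPKM in naive GMP-MoP. Of these 9 genes, naive GMP was called higher in 9 against MDP, 6 against cMoP, 7 against GMP-MoP and 6 against proNeu1; 6 were called lower in LPS GMP than in naive GMP, and none was called in proNeu1 after LPS. None of the 9 was listed at 0 in all libraries of naive GMP, and their sum was higher still, 136 to 167 FPKM, in naive proNeu2, where Igkc and Jchain were at trace levels. The part of these cell types in the immunoglobulin result was not tested.

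The leading V segments were not the same in GMP and proNeu1. In naive GMP, 56 of the 59 V segments were above 0 in all 3 libraries, against 8 in naive proNeu1 and 53 in LPS proNeu1. In naive proNeu1 13 were at 0 in all 3 libraries. Heavy and kappa V reads numbered 811 to 2744 a library in naive proNeu1 and 7403 to 12172 in naive GMP. The part of read number in these counts was not tested. Ighv11-2 was 54.4, 135 and 134 FPKM in naive GMP and 3.41, 0 and 4.32 FPKM in naive proNeu1 (log2 fold change 5.14, SE 0.62, adjusted p = 1.27e-07). Igkv14-126 was 99.0, 252 and 323 FPKM in naive GMP and 4.56, 0 and 4.45 FPKM in naive proNeu1 (log2 fold change 6.02, SE 0.63, adjusted p = 1.19e-08). These were also the segments with the largest gap between those groups, followed by Igkv12-89, Igkv19-93 and Ighv9-3 with log2 fold changes of 4.95, 4.70 and 4.06. Ighv11-2 and Igkv14-126 were the first heavy and kappa V segment in each of the 6 GMP libraries, naive and LPS, and neither was first in a proNeu1 library. The segments named here were picked for leading these libraries or for their gap, so their p-values only describe these libraries.

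In proNeu1 the leading pair was Ighv7-1 and Igkv15-103, again in all 6 libraries. Ighv7-1 was 37.7, 28.3 and 49.7 FPKM in naive proNeu1 and 20.9, 28.8 and 39.3 FPKM in naive GMP, with overlapping groups. Igkv15-103 was 53.9, 24.8 and 71.7 FPKM in naive proNeu1 and 21.4, 36.0 and 51.3 FPKM in naive GMP, also overlapping, in libraries whose Igkc differed by a log2 fold change of 3.29. As a share of all heavy V segments, Ighv7-1 made up 80.3, 74.7 and 36.3% in naive proNeu1 and 6.65, 8.64 and 7.51% in naive GMP. As a share of all kappa V segments, Igkv15-103 made up 78.1, 79.0 and 40.4% and 4.57, 7.08 and 5.82%. The third naive proNeu1 library, the highest in Jchain, differed from the others: Igkv5-39 was 66.7 FPKM and Ighv6-3 40.0 FPKM there, and both were at 0 in the other two.

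The shares kept this order after LPS. Ighv7-1 made up 27.6, 55.1 and 34.05% of heavy V segments in LPS proNeu1, and Igkv15-103 26.4, 59.1 and 38.9% of kappa V segments. Ighv11-2 made up 47.8, 27.7 and 42.1% of heavy V segments in LPS GMP, and Igkv14-126 44.0, 30.1 and 39.8% of kappa V segments. Set against Jchain in the same library, Igkv15-103 was 11.8, 9.94 and 6.47 times as high in naive proNeu1 and 3.20, 8.46 and 4.48 times in LPS proNeu1. It was 0.358, 0.543 and 0.484 times as high as Jchain in naive GMP, so that no GMP library reached a proNeu1 library. Since this pair was picked out for leading these libraries, the shares are a description and carry no test.

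**Figure D3:**
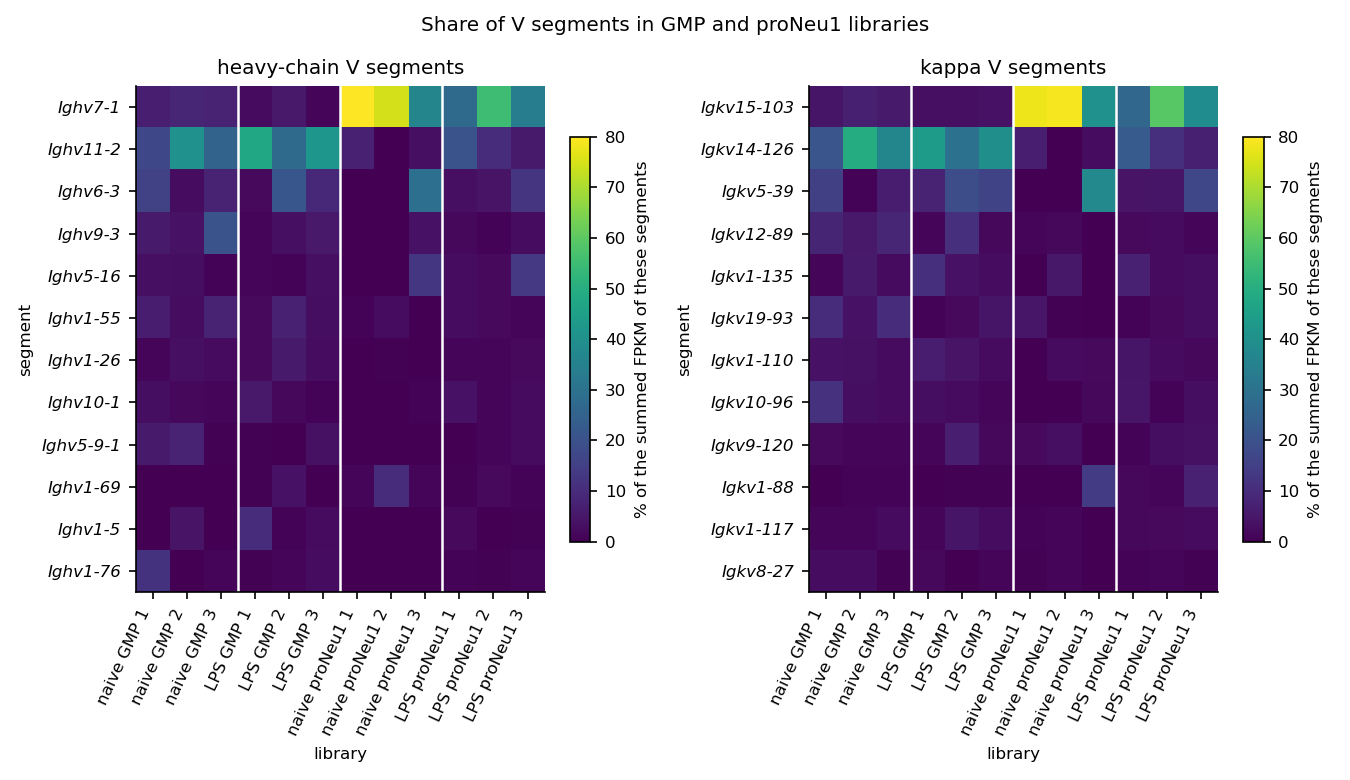
Share (%) of the summed FPKM of the heavy V segments (left) and of the kappa V segments (right) taken by the 12 segments with the highest mean share, in the GMP and proNeu1 libraries. Ighv11-2 and Igkv14-126 were brightest in the GMP columns, Ighv7-1 and Igkv15-103 in the proNeu1 columns, and the third naive proNeu1 library added Ighv6-3 and Igkv5-39.

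The spread over segments was counted with the inverse Simpson number, the number of equally used segments that would give the same concentration. For kappa it was 9.38, 3.75 and 6.03 in naive GMP, 1.62, 1.59 and 3.08 in naive proNeu1 and 7.15, 2.72 and 5.04 in LPS proNeu1. For heavy V segments it was 11.2, 5.30 and 7.62 in naive GMP, 1.53, 1.74 and 4.16 in naive proNeu1 and 7.44, 3.11 and 6.31 in LPS proNeu1. By this measure every naive proNeu1 library lay below every naive GMP library. The kappa V segments with reads above 0 numbered 14, 10 and 11 of 28 in naive proNeu1 and 28, 27 and 28 in naive GMP, at lower kappa totals in proNeu1.

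Lambda light chains were also higher in naive GMP than in naive proNeu1, at a low level. Iglc1, a constant region used by Iglv1, was 8.30, 10.8 and 16.6 FPKM in naive GMP and 0.277, 0.138 and 0.175 FPKM in naive proNeu1 (log2 fold change 3.38, SE 0.29, adjusted p = 3.96e-10). Within naive proNeu1 Iglc1 did not follow Igkc, which was 46.0, 20.5 and 125 FPKM there. Iglc2 was 4.48, 9.68 and 15.7 FPKM and 0.622, 0.568 and 4.86 FPKM in those groups and its groups overlapped (log2 fold change 2.01, SE 0.42, adjusted p = 0.000214). Kappa made up 93.6% to 97.1% of the light chain constant level in the GMP and LPS proNeu1 libraries. Iglv1 itself was 15.2, 12.9 and 44.1 FPKM in naive GMP and 0.161, 0.480 and 6.41 FPKM in naive proNeu1, where only the third library was above 1 FPKM. Iglc1 shares 0.236% of its 31-base words with another transcript, and Iglc2 shares 19.6% of its words with others, most often Iglc3.

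From proNeu1 to proNeu2, the next neutrophil stage, V segments, Igkc and Jchain were at trace levels in the later one. Of the 74 genes 5 were called lower in naive proNeu2 and none higher, against 1.25% and 0.0966% of all genes, and none was higher at an unadjusted p below 0.05. They were Ighv7-1 (log2 fold change -5.04, SE 0.53, adjusted p = 1.84e-07), Igkv15-103, Igkc, Jchain and Iglc2. Igkc was 1.68, 2.17 and 0.421 FPKM in naive proNeu2, under every proNeu1 library (log2 fold change -4.45, SE 0.64, adjusted p = 1.17e-05). Jchain was 0.0536, 0.445 and 0 FPKM there (log2 fold change -2.42, SE 0.42, adjusted p = 0.000104). The count was 11 without the first proNeu1 library and 13 without the second. Voom on the recovered reads called Ighv7-1 and Igkv15-103 but not Jchain (adjusted p = 0.0878), Igkc (0.0631) or Iglc2 (0.0559). Iglc2 also rested on the third proNeu1 library, without which its log2 fold change was -0.50 (adjusted p = 0.36), and it was not called when any 1 of the proNeu2 libraries was left out.

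At 2 days after LPS the immunoglobulin genes were lower in GMP. Jchain was 33.8, 21.7 and 7.68 FPKM in LPS GMP, below each of the naive GMP libraries (log2 fold change -1.999, SE 0.42, adjusted p = 0.000379). Igkc was 257, 154 and 62.8 FPKM (log2 fold change -1.85, SE 0.64, adjusted p = 0.0189) and Ighm 196, 121 and 49.3 FPKM (log2 fold change -2.09, SE 0.39, adjusted p = 0.000113). For each of these genes the first LPS library was the highest and the third the lowest, and none reached a naive library. The fall of Igkc did not pass with a pseudocount of 0.1 (adjusted p = 0.0749), without the third naive library (adjusted p = 0.0763) or without the third LPS library (adjusted p = 0.13). Of the 74 genes 40 were called lower and none higher, also none at an unadjusted p below 0.05, where 3.04% and 0.914% of all genes were called. The 40 included all 4 J genes, both heavy and both lambda constant genes, Igkc, Jchain, 2 of 3 kappa J genes, 17 of 30 heavy V and 11 of 28 kappa V segments.

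Among the V segments the greatest falls in LPS GMP were those of Igkv19-93, from 47.2, 19.6 and 89.0 FPKM to 2.37, 3.61 and 3.52 FPKM (log2 fold change -3.44, SE 0.41, adjusted p = 3.40e-07), and of Igkv4-55, from 4.18, 27.4 and 10.1 FPKM to 0.861, 0 and 0 FPKM (log2 fold change -3.26, SE 0.37, adjusted p = 1.87e-07). For neither did the groups overlap. Igkv4-55 shares 78.2% of its 31-base words with other transcripts, above all Igkv4-59, so its reads may not be its own. Ighv9-3 was far higher in 1 naive library than in the others, with 18.6, 13.04 and 107 FPKM in naive GMP and 2.32, 4.52 and 2.48 FPKM in LPS GMP (log2 fold change -2.95, SE 0.56, adjusted p = 0.000146). Ighv5-9-1 and Igkv12-89 fell by 2.89 and 2.85 on the log2 scale. Igha fell by 1.25, Iglc1 by 1.31 and Iglc2 by 1.64 on that scale. Without the third LPS library Igha and Iglc1 were under 2-fold (log2 fold changes -0.94 and -0.92), and with a pseudocount of 0.1 Igha did not pass (adjusted p = 0.163). Ighv11-2, first among the heavy V segments in these libraries, did not pass the test (log2 fold change -1.24, SE 0.62, adjusted p = 0.104), and its groups overlapped.

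In proNeu1 immunoglobulin genes were higher after LPS. Jchain was 62.9, 50.7 and 20.1 FPKM in LPS proNeu1 against 4.56, 2.49 and 11.1 FPKM in naive proNeu1 (log2 fold change 2.74, SE 0.42, adjusted p = 3.72e-05). Igkc was 661, 502 and 176 FPKM against 46.0, 20.5 and 125 FPKM (log2 fold change 2.95, SE 0.64, adjusted p = 0.00134). For both, every LPS library was above every naive one. Ighm, at 474, 411 and 156 FPKM against 78.1, 61.3 and 159 FPKM, overlapped between the lowest LPS library and the third naive one (log2 fold change 1.76, SE 0.39, adjusted p = 0.00169).

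Of the 74 genes 60 were called higher in LPS proNeu1 and none lower, where 1.03% of all genes were called higher and 0.439% lower; 1 was lower at an unadjusted p below 0.05. All genes together gave 117 higher calls, so that the immunoglobulin genes were 51.3% of them. In 41 of the 60 the naive and LPS libraries did not overlap, as in 0.861% of all genes, counted as higher calls without overlap. The median log2 fold change was 2.07 over the 74 genes and -0.05 over all genes. The 60 held 25 of 28 kappa V, 23 of 30 heavy V and both lambda V segments, both heavy, both lambda and the kappa constant gene, Jchain, 2 of 3 kappa J and 2 of 4 heavy J genes. Ighd4-1 was not called and was at 0 in every naive proNeu1 library. Among the constant genes the log2 fold change was 3.66 for Iglc1, 2.02 for Igha and 1.503 for Iglc2. Iglc2 was not called with the compared groups alone (adjusted p = 0.0819) or without the first naive, second naive or first LPS library (adjusted p = 0.0598 to 0.0658). Jchain divided by Igkc was 0.0992, 0.122 and 0.0888 in naive proNeu1, 0.0952, 0.101 and 0.114 in LPS proNeu1, 0.162, 0.151 and 0.145 in naive GMP and 0.132, 0.141 and 0.122 in LPS GMP. The ratio varied less than either gene but was ordered by group. Naive GMP lay above LPS GMP. Every GMP library lay above every proNeu1 library, though the closest values were 0.1222 and 0.1218.

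By size the leading V segments were Igkv14-126, at 175, 81.0 and 16.5 FPKM in LPS proNeu1 (log2 fold change 4.34, SE 0.63, adjusted p = 2.34e-05), Igkv1-135, Iglv1, Ighv11-2 and Iglv2, with log2 fold changes down to 3.49. Igkv14-126 and Ighv11-2, the pair of the GMP libraries, were present in every LPS proNeu1 library beside the pair of the naive proNeu1 libraries. Igkv15-103 rose as well, to 201, 429 and 90.1 FPKM (log2 fold change 2.09, SE 0.57, adjusted p = 0.00806). Ighv7-1 reached 140.0, 256 and 49.4 FPKM (log2 fold change 1.66, SE 0.53, adjusted p = 0.0217), and the third LPS library was 49.4 FPKM, under the 49.7 FPKM of the third naive library.

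The third library was the lowest in Jchain in both LPS GMP and LPS proNeu1, and the first was the highest. Without 1 library at a time the count of 60 ranged from 40 to 57, and in a fit of the compared groups alone it was 37 of the 60 genes then tested.

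Jchain and Igkc were lower in GMP and higher in proNeu1 after LPS. The difference itself was tested, a comparison added after the data were seen. Of the 74 genes 64 were called higher in proNeu1 minus GMP and none lower, also none at an unadjusted p below 0.05, against 2.86% and 0.51% of all genes. Naive GMP and LPS proNeu1, where 40 and 27 of the 74 genes were highest, both enter this difference with a plus sign. Segments in the table mainly through those groups would be positive here, so the count supports no direction. The difference of the log2 fold changes was 4.74 for Jchain (SE 0.59, adjusted p = 3.10e-06) and 4.805 for Igkc (SE 0.90, adjusted p = 0.000402). The LPS comparisons in GMP and in proNeu1 share no library, but same-numbered LPS GMP and LPS proNeu1 libraries deviated from their group means together (r = 0.404, 0.182 and 0.385 over all genes for numbers 1, 2 and 3, and 0.291, 0.145 and 0.283 without the immunoglobulin genes). With the replicate number as a block 66 genes were called, including all 64. Of the 40 genes lower in LPS GMP, 35 were among the 60 higher in LPS proNeu1, which is 87.5% of the first list and 58.3% of the second. Among all 74 genes 81.1% were higher in LPS proNeu1 and 54.1% lower in LPS GMP, so the overlap was near those shares.

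**Figure D4:**
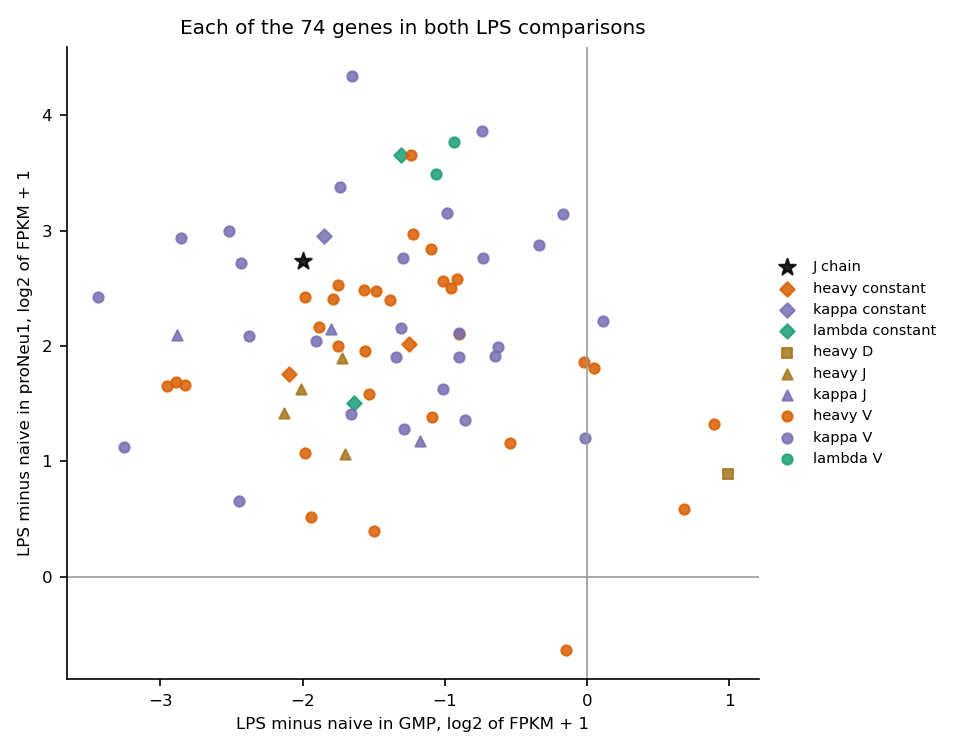
LPS minus naive in GMP (x axis) and in proNeu1 (y axis), as log2 of FPKM + 1, for each of the 74 genes, marked by class. Most points lie at upper left, lower in LPS GMP and higher in LPS proNeu1; 1 point lies below 0 on the y axis, Ighv1-41.

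In GMP-MoP and proNeu2 no immunoglobulin gene passed the test after LPS. In LPS GMP-MoP Jchain was 0.124, 0.605 and 0.0573 FPKM and Igkc 2.81, 4.81 and 0.675 FPKM, overlapping with naive GMP-MoP. By limma 0 of the 74 genes were called in this comparison in either direction, 1 had an unadjusted p below 0.05 (Ighj3, lower), and voom on the recovered reads called 0; among all genes 0.72% were higher and 0.413% lower. In LPS proNeu2 Jchain was 0.262, 0.339 and 0.0214 FPKM and Igkc 1.60, 5.72 and 0.225 FPKM, also overlapping with naive proNeu2. By limma 0 of the 74 genes were called there, 1 had an unadjusted p below 0.05 (Ighv1-41, higher), and voom called 0; among all genes 0.536% were higher and 0.457% lower.

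Traces of the proNeu1 pair appeared in the second LPS library of both populations. Igkv15-103 was 0, 4.47 and 0 FPKM in LPS proNeu2 and 0, 1.38 and 0 FPKM in LPS GMP-MoP. Ighv7-1 was 0, 2.09 and 0 FPKM and 0, 1.34 and 0 FPKM in the same order. Such traces were not confined to LPS libraries. In naive proNeu2 Igkv15-103 was 0.199, 1.504 and 0 FPKM and Ighv7-1 0, 0.621 and 0 FPKM. In naive GMP-MoP both segments were at 0 in every library. The second LPS proNeu1 library held the highest levels of both segments, 429 FPKM and 256 FPKM. Among the naive proNeu1 libraries the second was the lowest for both.

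The GMP response also differed from that of GMP-MoP, with 25 of the 74 genes called higher in GMP-MoP minus GMP and none lower, also none at an unadjusted p below 0.05, against 3.28% and 0.641% of all genes. The difference for Jchain was 2.19 (SE 0.59, adjusted p = 0.00807). Of the 25 genes 11 were at 0 in all 6 GMP-MoP libraries, so that their difference is the fall in GMP with its sign turned, on a scale where a gene at 0 cannot fall. Voom on the recovered reads called 5 of the 25, without Jchain (adjusted p = 0.468), and 16 were called without the third LPS GMP library, among which Ighm was not (adjusted p = 0.0643).

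After LPS, GMP still stood above GMP-MoP, with 43 of the 74 genes called higher and 1 lower, against 3.64% and 1.94% of all genes. Jchain at 33.8, 21.7 and 7.68 FPKM was above all of 0.124, 0.605 and 0.0573 FPKM (log2 fold change 3.94, SE 0.42, adjusted p = 3.01e-08). Igkv14-126 was 140.4, 57.0 and 31.4 FPKM against 0.965, 0 and 0 FPKM (log2 fold change 5.68, SE 0.63, adjusted p = 7.53e-08), but by voom on the recovered reads this segment did not pass (adjusted p = 0.0915). Ighm overlapped at 196, 121 and 49.3 FPKM and 119, 120.2 and 93.8 FPKM (log2 fold change -0.06, SE 0.39, adjusted p = 0.918), as did the J genes in their values.

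Genes of B and plasma cells other than the immunoglobulins were read beside these levels. Of the plasma cell list 10 of 18 genes were measured, of the B cell list 11 of 20 and of the early B list 8 of 14; the rest were not analysed here. Cd79a, a signalling chain of the B cell receptor, was 9.98, 5.14 and 9.97 FPKM in naive GMP, 0.644, 1.07 and 0.199 FPKM in LPS GMP, 0.518, 0.622 and 0.737 FPKM in naive proNeu1 and 0.522, 1.08 and 0.205 FPKM in LPS proNeu1. Naive GMP lay above the other 3 groups, and LPS proNeu1 overlapped with the low ones. Igll1, the surrogate light chain of B cell precursors, was 9.79, 4.75 and 7.16 FPKM in naive GMP and 1.58, 0.919 and 1.46 FPKM in LPS proNeu1.

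In LPS proNeu1 against naive proNeu1 no gene of the plasma, B or early B list was called by limma, while 60 immunoglobulin genes were. At an unadjusted p below 0.05, 7 plasma cell genes were higher and none lower, 4 B cell genes were lower and none higher, and 2 early B genes were higher and 2 lower. Plasma cell genes counted this way after LPS were 6 higher and none lower in GMP-MoP, and 4 higher and none lower in proNeu2. No immunoglobulin gene was called by limma in those 2 populations. In GMP 3 plasma cell genes were higher and 3 lower. Voom on the recovered reads called 2 plasma cell genes higher and 1 B cell gene lower. Derl3, of the endoplasmic reticulum degradation system, was 2.59, 1.99 and 1.66 FPKM in LPS proNeu1 and 0.785, 1.30 and 0.663 FPKM in naive proNeu1, without overlap but under 2-fold (log2 fold change 0.69, SE 0.18, adjusted p = 0.00564). Xbp1, a transcription factor of plasma cells that neutrophil progenitors also expressed, was 132, 123 and 142 FPKM and 122, 112 and 119.9 FPKM (log2 fold change 0.16, SE 0.07, adjusted p = 0.0904).

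**Figure D5:**
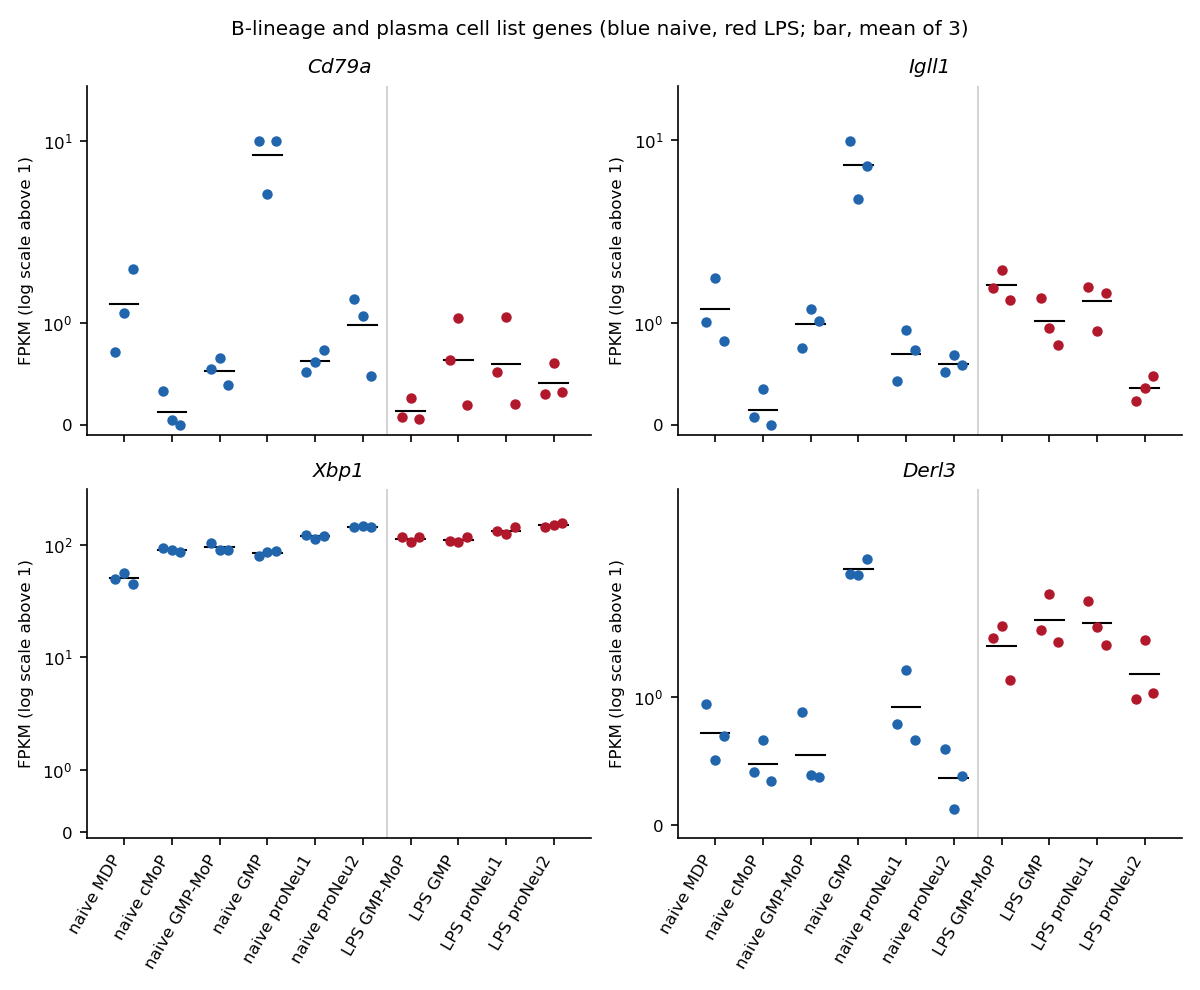
Cd79a, Igll1, Xbp1 and Derl3 in each of the 30 libraries, in FPKM on a log scale above 1 and a linear scale below it, with a bar at the mean of 3 libraries. Cd79a and Igll1 were high in naive GMP alone among the groups drawn, Xbp1 was high in every group, and Derl3 was highest in naive GMP.

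In naive GMP against naive GMP-MoP 6 B cell genes were called higher and 1 lower, among them Cd79a (log2 fold change 2.57, SE 0.24, adjusted p = 2.48e-09), Cd72, a B cell coreceptor, and Blnk, a B cell adaptor. The plasma cell genes called higher were Derl3 and Ell2, an elongation factor for antibody transcripts (log2 fold change 2.28, SE 0.11, adjusted p = 2.52e-15), 2 of 10. In LPS GMP against naive GMP 4 B cell genes were called lower, led by Cd79a (log2 fold change -2.50, SE 0.24, adjusted p = 1.45e-08), 1 plasma cell gene was called higher, Fkbp11 (log2 fold change 1.12, SE 0.30, adjusted p = 0.00367), and none of either list was called the other way. Summed over the measured list, plasma cell genes came to 413 to 478 FPKM in naive GMP, 443 to 486 FPKM in naive proNeu1 and 509.8 to 559.6 FPKM in LPS proNeu1, and also to 533 to 564 FPKM in LPS GMP-MoP, where most V segments were at 0.

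In naive MDP the D and J genes stood beside genes of early lymphoid progenitors. Dntt, the enzyme that adds bases at V, D and J joints, was 187, 140.3 and 196 FPKM in naive MDP and 0.0916, 0.0715 and 0.0718 FPKM in naive cMoP (log2 fold change 7.33, SE 0.19, adjusted p = 9.95e-20). Il7r, a receptor of lymphoid precursors, was 9.61, 8.62 and 9.98 FPKM and 0.0551, 0 and 0.0144 FPKM (log2 fold change 3.34, SE 0.19, adjusted p = 1.15e-13). The MDP libraries lay above all cMoP libraries for both. Of the 8 early B genes measured, 4 were called higher in naive MDP than in naive cMoP and none lower. Naive GMP, where the summed D and J level was lower, had 7 called higher and 1 lower than cMoP. Against MDP it had 2 called higher and 4 lower. The list of plasmacytoid dendritic cell genes, 7 of 10 measured, summed to 697 to 809 FPKM in naive MDP and 435 to 478 FPKM in naive cMoP. The part of these cells in the D and J result was not tested.

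Ighv1-41 did not behave like the other V segments. GENCODE lists it as a V pseudogene (chr12:114932371-114932782, minus strand), and it was 14.2, 13.1 and 10.8 FPKM in naive proNeu2, 13.8, 8.94 and 11.97 FPKM in naive proNeu1 and 0.573, 0.927 and 0.773 FPKM in naive GMP. After LPS it was 19.6, 18.1 and 16.3 FPKM in proNeu2 and 7.11, 9.17 and 5.10 FPKM in proNeu1. It was highest in proNeu2, where most other V segments were at 0, and lower in naive GMP than in naive proNeu1 (log2 fold change -2.82, SE 0.22, adjusted p = 4.62e-11). LPS GMP was also under LPS GMP-MoP (log2 fold change -1.23, SE 0.22, adjusted p = 6.80e-05). It shares 24.4% of its 31-base words with other transcripts.

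The genes most like Jchain over the 10 groups differed from it after LPS. By the root mean square difference of centred group means of log2 of FPKM + 1, the 8 nearest were Gata1, Alox15, Slc7a8, Slc18a2, 4930519L02Rik, Il1rl1, Fgf3 and Ms4a2, at 1.46 to 1.57, while the spread of Jchain itself around its mean was 2.34. Gata1, the nearest, averaged 33.2 FPKM in naive GMP and 11.5 FPKM in LPS GMP but 0.407 FPKM in LPS proNeu1, where Jchain was 62.9, 50.7 and 20.1 FPKM. Of the 8, the highest mean in LPS proNeu1 was 5.48 FPKM.

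Some segments share much sequence with relatives, so that the counting could split or lose their reads. Of the 73 genes long enough, 17 shared over 50% of their 31-base words with another annotated transcript, led by Igkv4-59 with 87.0%. Ighv11-2 was among them with 50.6%, all with Ighv11-1, while the share was 5.79% for Igkv14-126, 6.01% for Ighv7-1 and 0% for Igkv15-103. The octamer ATGCAAAT, the textbook element of V promoters, was searched on both strands of the windows from 250 bases before to 50 after a gene's start, from RefSeq. Jchain was the 1 of the 74 genes with such a window and did not hold it, while 1.74% of 32851 windows did.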

How the data were processed

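Per the labels' protocols, total RNA of the sorted cells was made into libraries with a strand-specific NEBNext kit; whether counting used strand is not given in the sources used here. The deposited values are FPKM made by the authors from reads assigned to genes of GRCm38/mm10, with Trimmomatic 0.38.0, STAR 2.7.8 and featureCounts 2.0.1 named in the submitters' processing notes. Depth was recovered from the FPKM steps: with 1 total per library and 1 length per gene, the values of all 11383 genes were whole reads within 0.02 reads (up to 0.1 for high counts). The GENCODE M21 length gave whole reads for 50 of the 74 genes, and for the others the smallest length that did was used, so their read numbers may be too low by a whole factor. Precision is limited by 3 libraries a group and, for the short D and J genes, by few reads.

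limma 3.58.1 (R 4.3.3, trend) was fitted to log2 of FPKM + 1 over all 30 libraries, after requiring 1 FPKM in 3 libraries, which removed no gene; fold changes on that scale understate those of low genes. Calls needed a Benjamini-Hochberg adjusted p below 0.05 over all genes and a log2 fold change of at least 1. The p-values measure the spread between these libraries. The step was tested on simulated data for naive GMP against naive GMP-MoP on 11383 genes, and 99 of 100 genes changed 4-fold and 28 of 100 changed 2-fold were recovered. The simulation gave all genes 1 set spread between libraries, not that of the immunoglobulin genes. These rates therefore need not hold for them. Alternatives tried were voom on the recovered reads, a replicate block, the compared groups alone, a minimum mean of 5 FPKM, no filter, a pseudocount of 0.1, scaling by median of ratios, and each library left out in turn. Named were all constant genes, D and J genes and Jchain, and of the V segments the 5 largest called changes each way in a comparison with at least 10 FPKM in 1 group, plus those leading the highest libraries; Ighv1-41, Ighv1-74, Ighv6-3, Igkv5-39 and the genes in figures were named after their values were seen. The members and marker lists were chosen with earlier results of these data known. Tables and figures were made with Python 3.11.15, pandas 2.3.3 and matplotlib 3.10.9.

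The labels number the libraries 1 to 3 in every group. Deviations from the group means correlated between same-numbered libraries of LPS GMP and LPS GMP-MoP by 0.282, 0.295 and 0.241 over all genes, and of LPS GMP and LPS proNeu1 by 0.404, 0.182 and 0.385, above the 0.1 taken as pairing. Every other pair of LPS groups was above it for each number, except LPS proNeu1 with LPS proNeu2 for number 2 (0.0875). The block changed 44 calls to 49 in LPS GMP against LPS GMP-MoP.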

Additional observations from a re-analysis of the deposited data

Results flagged for a closer look

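The LPS response of 25 immunoglobulin genes differed between GMP-MoP and GMP when the difference was tested, and each value that follows is the log2 fold change of LPS against naive in GMP-MoP minus that in GMP (limma, adjusted p below 0.05 over all genes). It was 2.19 for Jchain, 1.85 for Ighm, 2.31 for Ighj1, 1.504 for Iglc1 and 1.88 for Iglc2. Among V segments it was 3.44 for Igkv19-93, 3.26 for Igkv4-55, 3.04 for Ighv5-9-1, 3.24 for Ighv7-1 and 2.85 for Ighv9-3. Igkv19-93 and Igkv4-55 were among 11 of the 25 genes at 0 in every GMP-MoP library. For these the value is the fall in GMP with its sign turned, since a gene at 0 cannot fall. Igkc was not among the 25, at 2.08 with an adjusted p of 0.0943 by limma, but passed with a replicate block (adjusted p = 0.0201). By voom on the recovered reads 5 of the 25 passed, and Jchain, Iglc1, Iglc2, Igkv19-93, Ighv5-9-1, Ighv7-1 and Ighv9-3 did not (adjusted p = 0.177 to 0.658). Ighj1 did not pass with a pseudocount of 0.1 (adjusted p = 0.135). In LPS GMP-MoP against naive GMP-MoP none of these genes passed the test.

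The LPS response of 64 immunoglobulin genes differed between proNeu1 and GMP by the same test, which was added after the data were seen. The count supports no direction, since most immunoglobulin genes were highest in naive GMP or LPS proNeu1, which both raise this difference. The difference, proNeu1 minus GMP, was 4.74 for Jchain, 4.805 for Igkc, 3.27 for Igha and 3.85 for Ighm. For the J genes it was 3.55 for Ighj1, 3.62 for Ighj2, 2.76 for Ighj3 and 3.64 for Ighj4, and for the lambda constant genes 4.97 for Iglc1 and 3.15 for Iglc2. The V segments with the largest differences were Igkv14-126 with 5.99, Igkv19-93 with 5.86, Igkv12-89 with 5.79, Igkv10-96 with 5.52 and Igkv4-59 with 5.12. Genes of basophils, eosinophils and mast cells were lower in LPS GMP and in LPS proNeu1, with 8 and 6 of 15 called lower, and their part in the difference was not tested.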

How the results depend on the processing

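With the block of replicate numbers as a term (replicate block), the count of immunoglobulin genes called in naive proNeu2 against proNeu1 went from 5 to 9, and no other count moved by over 1.5 times. Naive libraries with the same number were not related over all genes in most pairs of groups. Requiring a mean of 5 FPKM left 21 of the 74 genes, of which 19 were called in naive GMP against MDP, 17 against cMoP, 16 against GMP-MoP and 18 against proNeu1. Under that filter 15 were called in LPS GMP against LPS GMP-MoP, 14 in LPS against naive GMP, 18 in LPS against naive proNeu1, 9 in the LPS response of GMP-MoP minus GMP and 18 in that of proNeu1 minus GMP; the lower counts follow from fewer genes tested. With the compared groups alone 25 genes were called in LPS GMP against LPS GMP-MoP and 37 in LPS against naive proNeu1. A pseudocount of 0.1 gave 4 calls in MDP against cMoP, of which 1 was among the 6 reported there and none was a D or J gene, 10 calls in proNeu2 against proNeu1, 1 in LPS against naive proNeu2 and 16 in the response of GMP-MoP minus GMP. Voom on the recovered reads gave 2 in proNeu2 against proNeu1 and 5 in the response of GMP-MoP minus GMP. The cause of these shifts was not tested.

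Leaving out 1 library at a time gave 4 to 13 calls in proNeu2 against proNeu1, 0 to 2 in LPS against naive GMP-MoP and 16 to 32 in the response of GMP-MoP minus GMP, where 16 was the count without the third LPS GMP library. The 2 calls in GMP-MoP came without the first naive library. The same step gave 30 to 46 calls in LPS against naive GMP and 40 to 57 in LPS against naive proNeu1. No called value changed sign under any alternative run. Where genes were called, at least 1 / 1.5 of them were called again in 139 of 155 recomputations, and 9 of the 16 exceptions came from the minimum of 5 FPKM. Genes near 0 limit what depth can show: a segment at 0 in a library may be present under 1 read.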
